A study of Mus musculus with 12 samples.

Results

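Genes for synaptic vesicle proteins and for the proteins that fuse vesicles with the plasma membrane were examined in mouse striatum on expression arrays. Members were chosen by gene symbol (synaptotagmins, synapsins, synaptoporin, synaptophysin, synaptogyrins, Doc2, Rab3, Rim, rabphilin, Sv2, Vamp, syntaxin, Stxbp, complexin, Unc13 and Scamp genes, with Snap25 and Snap91), from probe sets that carry exactly 1 symbol. A probe set is the group of array probes that reads 1 transcript. The symbols matched 138 probe sets of 78 genes, and 60 genes had a probe set with a log2 signal above 4 on at least 3 of the 12 arrays. These 60 are the members, of 6651 genes tested in all, and each is read by the probe set with its highest mean signal. The pattern for Rab3 also takes Rab31, Rab33a, Rab33b and Rab34, which lie outside the Rab3 subfamily.

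The study compared SRF mutant and control mice, killed 1 hour after they had been injected intraperitoneally with saline or with cocaine at 25 mg/kg, with 3 animals in each of the 4 groups. SRF, the serum response factor, is a transcription factor of activity-regulated and cytoskeletal genes, and cocaine blocks the reuptake of dopamine. All animals were female littermates of 10 to 15 weeks, singly caged and handled for 5 days, and the tissue was the striatum with the nucleus accumbens. How Srf was altered, and in which cells, is not given in the labels, and controls are coded wt in their titles. The groups were taken from the sample titles: the treatment text names cocaine for every sample, and the description field gives other groups for most samples, against which the Srf signal went.

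At a synapse, transmitter is stored in vesicles whose membrane carries synaptophysin, synaptogyrins and Sv2 proteins. Rab3 GTPases and Rim proteins bring vesicles to the active zone, Munc13 (Unc13) and Munc18 (Stxbp) proteins prime them, and the SNAREs Vamp2, syntaxin 1 and Snap25 pull the membranes together. Complexins hold the assembled complex, and synaptotagmins and Doc2 proteins sense the calcium that triggers fusion. Most striatal neurons are projection neurons that release GABA and neuropeptides, and the tissue also holds the terminals of cortical, thalamic and midbrain axons, whose messenger RNA lies mainly in cell bodies elsewhere.

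The values are log2 signals made by the authors with GCRMA, on which a difference of 1 is a factor of 2. Array medians lay between 3.75 and 3.78, and arrays correlated at 0.986 to 0.993 within groups and 0.976 to 0.990 between groups. Srf read 6.97 to 7.21 on the 6 control arrays and 5.01 to 5.49 on the 6 mutant arrays. Of 8 markers of striatal projection neurons on the array, all 8 were above the filter (Drd2, Penk, Tac1, Ppp1r1b, Rgs9, Pde10a, Bcl11b and Foxp1), with 2 higher and 1 lower in mutants. Of 9 markers of cortical glutamatergic neurons on the array, 7 lay below the filter (Neurod6, Neurod2, Neurod1, Tbr1, Cux2, Fezf2 and Rorb), with signals of 1.53 to 3.63. The other two, Lamp5 and Mef2c, which striatal neurons also express, were lower in mutants by −0.64 and −0.69 (log2). Their summed linear signal was 540 to 669 on control arrays and 361 to 412 on mutant arrays. The part of this in the results below was not tested. Striatal interneuron markers numbered 10 on the array, with 5 tested, and thalamic or septal neuron markers numbered 7, with 2 tested. By limma 0 of those tested were called for genotype, and the rest lay below the filter. Of 10 astrocyte, 9 oligodendrocyte, 8 microglia and 3 endothelial markers tested, 1 was called for genotype, the astrocyte gene Slc4a4. In bulk tissue, fewer cells of a type and less RNA per cell cannot be told apart.

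In mutants, 8 members were higher and 3 were lower than in controls over both treatments. The lower ones were the vesicle membrane gene Synpr and the calcium sensor genes Doc2b and Syt9. The higher ones were the vesicle membrane genes Syp and Sv2a, the calcium sensor gene Syt6, the Rab3 effector gene Rph3a, the GTPase genes Rab3b, Rab3c and Rab33a, and the SNARE gene Vamp2. A call means an adjusted p under 0.05 in limma, Benjamini-Hochberg over all 11102 probe sets tested. The 11 calls are 18.3% of the members. Of all genes tested, 10.7% were called in this comparison, 4.77% as higher and 5.92% as lower. A log2 change of at least 1 in size was called for 4 members (Synpr, Doc2b, Syt9 and Rab3b), and for 0.496% of all genes. Syt9, Syt12 and Syt13 entered the test through control arrays alone. Without these 3, 10 of 57 members were called, 8 higher and 2 lower, and 3 had a called change of at least 1 in size. The median change of the members was 0.02, beside −0.02 over all genes, and the median size was 0.107 against 0.0916. Without the 4 Rab genes outside the Rab3 subfamily, 7 members were higher and 3 lower of 56.

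**Figure D1:**
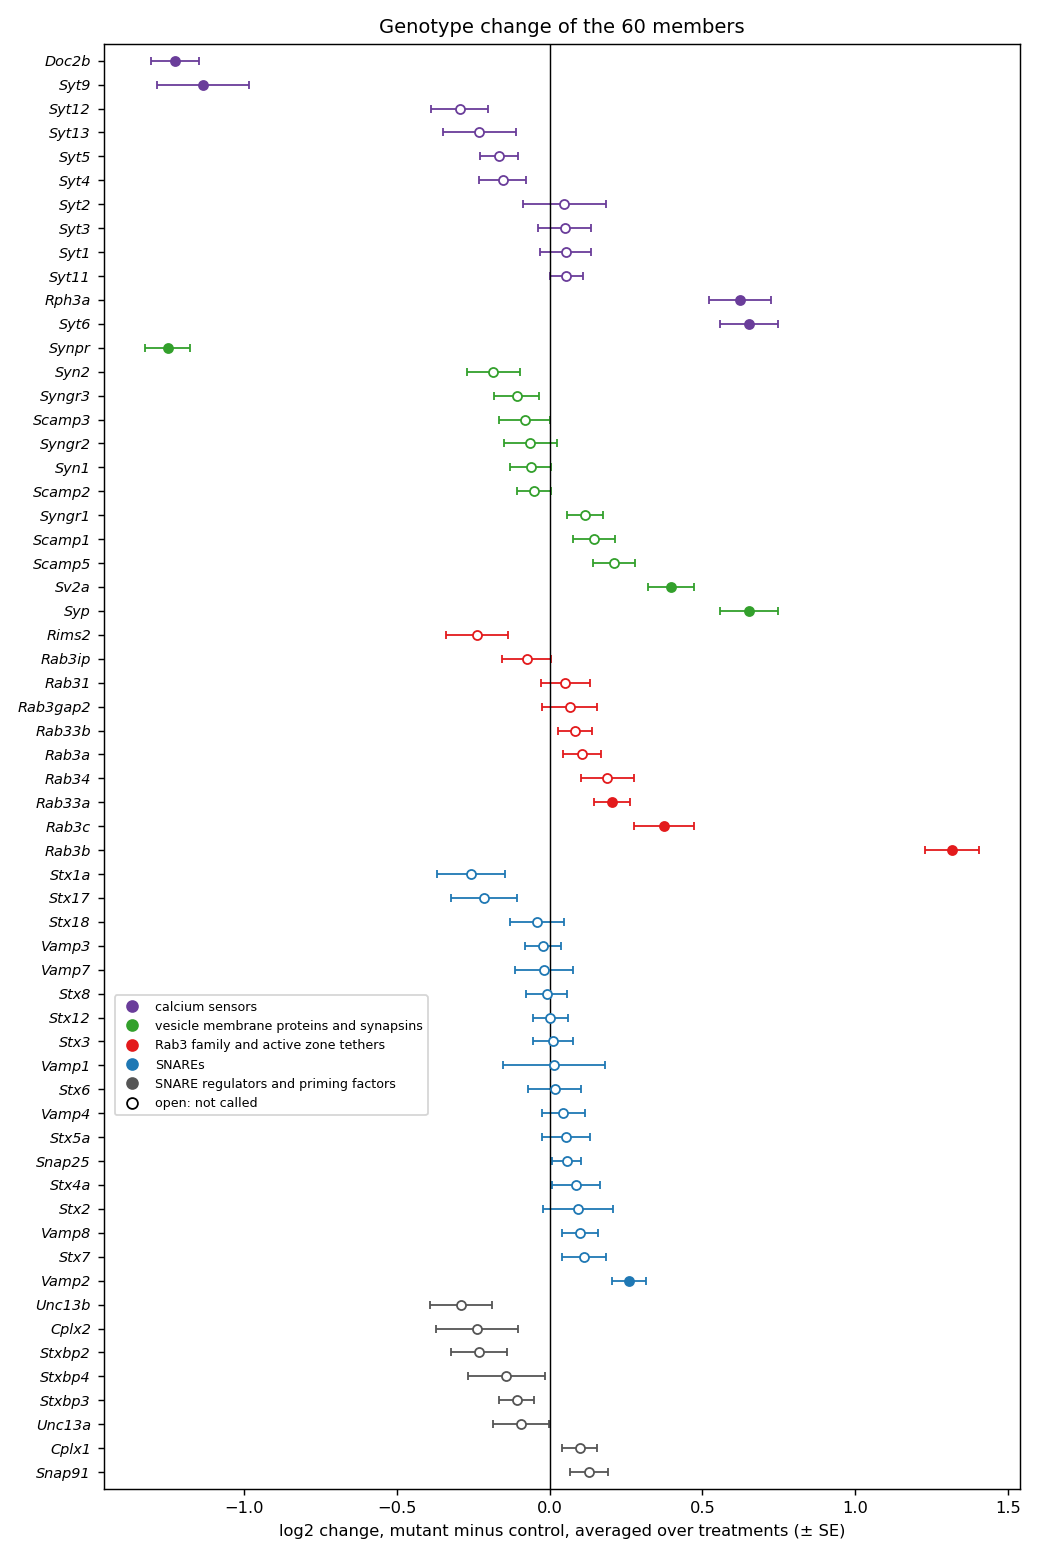
Genotype change (log2, mutant minus control, averaged over treatments) of the 60 members with limma's SE, by role. Filled points are the 11 called members, 3 at −1.13 or below and 8 from 0.21 to 1.32, and open points are the 49 members not called, none larger than 0.29 in size.

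Among 12 vesicle membrane and synapsin genes, Synpr was lower and Syp and Sv2a were higher in mutants, and 9 were not called. The calls are 25% of this group, beside 10.7% of all genes. Synpr encodes synaptoporin, a vesicle membrane protein of the synaptophysin family. It read 9.52, 9.61 and 9.51 in saline-treated controls and 9.38, 9.25 and 9.43 in cocaine-treated controls. The saline-treated mutants were at 8.08, 8.29 and 8.47, and the cocaine-treated mutants at 8.04, 8.07 and 8.26. Every mutant array lay below every control array, and the gene was 2.38-fold lower in mutants (−1.25 on the log2 scale, SE 0.0727, adjusted p = 3.03e-07).

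Syp encodes synaptophysin, the family's main vesicle protein and a standard marker of synapses. Its signals were 8.80, 8.68 and 8.47 in saline-treated controls, 8.49, 8.83 and 8.53 in cocaine-treated controls, 9.40, 9.12 and 9.54 in saline-treated mutants and 9.05, 9.33 and 9.29 in cocaine-treated mutants. The genotypes did not overlap, and Syp was 1.57-fold higher in mutants (0.65, SE 0.0945, adjusted p = 0.000719). So 2 members of the synaptophysin family differed in opposite directions between the same animals.

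Sv2a encodes a vesicle glycoprotein that binds synaptotagmin. It read 8.09, 7.74 and 7.82 in saline-treated controls, 7.63, 7.81 and 7.80 in cocaine-treated controls, 8.19, 8.24 and 8.19 in saline-treated mutants and 8.05, 8.26 and 8.35 in cocaine-treated mutants. Control replicate 1 after saline overlapped mutant replicate 1 after cocaine, while within each treatment the genotypes did not overlap. Sv2a was 1.32-fold higher in mutants (0.40, SE 0.0747, adjusted p = 0.0049). Of the members not called, Scamp1, a carrier membrane protein gene, read 0.15 (SE 0.0683, adjusted p = 0.218), and Syn1, which encodes the synapsin that tethers vesicles to one another, read −0.06 (SE 0.0674, adjusted p = 0.634).

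Among 12 genes grouped as calcium sensors by symbol, Doc2b and Syt9 were lower and Syt6 and Rph3a higher in mutants. The group holds the synaptotagmin, Doc2 and rabphilin genes, and not all of these bind calcium. Its 4 calls are 33.3%, beside 10.7% of all genes. They include Syt9, which like the uncalled Syt12 and Syt13 entered the test through control arrays alone. The 33.3% is therefore not independent of the filter. Doc2b encodes a high-affinity calcium sensor of spontaneous and asynchronous release. It read 7.42, 7.67 and 7.54 in saline-treated controls, 7.57, 7.67 and 7.49 in cocaine-treated controls, 6.31, 6.46 and 6.10 in saline-treated mutants and 6.37, 6.23 and 6.54 in cocaine-treated mutants. The lowest control array lay well above the highest mutant array, and Doc2b was 2.34-fold lower in mutants (−1.22, SE 0.0790, adjusted p = 8.63e-07). Its other tested probe set gave −1.01 (SE 0.0703), also with no overlap.

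Syt9 encodes a fast calcium sensor that has been studied in striatal neurons. It read 5.30, 4.82 and 4.20 in saline-treated controls and 4.55, 5.05 and 4.59 in cocaine-treated controls, and from 3.38 to 3.97 on the 6 mutant arrays. All mutant signals lay under the floor of 4, so the gene entered the test through its control arrays, and its 2.19-fold difference (−1.13, SE 0.151, adjusted p = 0.000389) rests on signals near background. Syt12 and Syt13 also passed the filter on control arrays alone. Syt12 read 3.91 to 4.10 in controls and 3.34 to 3.89 in mutants without overlap, but was not called (−0.29, SE 0.0939, adjusted p = 0.069). It was called without replicate 1 of the saline-treated mutants (adjusted p = 0.0431) and with array weights (adjusted p = 0.0452).

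Syt6 encodes a synaptotagmin best known from the acrosome reaction of sperm. It read 4.44, 4.51 and 5.00 in saline-treated controls, 5.12, 5.12 and 5.03 in cocaine-treated controls, 5.48, 5.51 and 5.58 in saline-treated mutants and 5.66, 5.60 and 5.30 in cocaine-treated mutants. The genotypes did not overlap, and Syt6 was 1.57-fold higher in mutants (0.65, SE 0.0960, adjusted p = 0.000832). Control arrays after saline were the lowest of all.

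Rph3a encodes rabphilin, a calcium-binding partner of Rab3. Its signals were 5.12, 4.93 and 4.60 in saline-treated controls, 4.62, 4.81 and 4.81 in cocaine-treated controls, 5.66, 5.17 and 5.46 in saline-treated mutants and 5.44, 5.33 and 5.57 in cocaine-treated mutants. The highest control and the lowest mutant array were close but did not overlap, and the gene was 1.54-fold higher in mutants (0.62, SE 0.101, adjusted p = 0.00173). Syt1, the main sensor of fast release in forebrain neurons, read 8.07 to 8.42 in controls and 8.14 to 8.46 in mutants and was not called (0.05, SE 0.0823, adjusted p = 0.754). Nor was Syt11, which encodes a synaptotagmin that does not bind calcium (0.06, SE 0.0549, adjusted p = 0.598).

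Of 10 Rab and Rim genes, 3 were higher and 0 lower in mutants, beside 4.77% and 5.92% of all genes. The 3 include Rab33a, which lies outside the Rab3 subfamily. Rab3b, a vesicle GTPase related to the main neuronal form Rab3a, had the largest change of any member. It read 6.44, 5.96 and 6.15 in saline-treated controls, 6.25, 6.25 and 6.09 in cocaine-treated controls, 7.55, 7.40 and 7.80 in saline-treated mutants and 7.48, 7.47 and 7.35 in cocaine-treated mutants. All mutant arrays lay above all control arrays, and Rab3b was 2.49-fold higher (1.32, SE 0.0884, adjusted p = 1.32e-06). Rab3a read 9.11 to 9.22 in controls and 9.11 to 9.48 in mutants, a difference of 0.11 that was not called (SE 0.0634, adjusted p = 0.346).

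Rab3c, another Rab3 form, read 6.26 to 6.80 in saline-treated controls, 6.64 to 6.81 in cocaine-treated controls, 6.78 to 7.06 in saline-treated mutants and 6.93 to 7.32 in cocaine-treated mutants. The genotypes overlapped after saline, and Rab3c was 1.30-fold higher over both treatments (0.37, SE 0.0986, adjusted p = 0.0315). Its call was lost in 7 of the 12 fits that left out 1 array (adjusted p up to 0.0764), those without replicates 1 or 3 of either mutant group or any cocaine-treated control. Its other tested probe set, however, gave 0.56 (SE 0.0898, adjusted p = 0.00158) without overlap.

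Rab33a, a Golgi GTPase outside the Rab3 subfamily, read 6.38 to 6.71 in controls and 6.60 to 6.84 in mutants. It was 1.15-fold higher (0.21, SE 0.0595, adjusted p = 0.0478), a call kept only in the fits without replicate 1 of the cocaine-treated mutants or of the cocaine-treated controls, and lost in the other 10 (adjusted p up to 0.107). Rims2, an active zone tether, read −0.24 (SE 0.101, adjusted p = 0.173) in its brighter probe set, but was called without replicate 1 of the saline-treated controls (−0.33, adjusted p = 0.016). Its other probe set, whose probes may match several transcripts, was called as lower (−0.41, SE 0.112, adjusted p = 0.0355). The genotypes overlapped in both.

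Of 18 SNARE genes, Vamp2 was called, or 5.56% beside 10.7% of all genes. Vamp2 is the vesicle SNARE of fast transmitter release. It read 8.59, 8.56 and 8.42 in saline-treated controls, 8.42, 8.38 and 8.56 in cocaine-treated controls, 8.79, 8.85 and 8.82 in saline-treated mutants and 8.64, 8.63 and 8.76 in cocaine-treated mutants. The genotypes did not overlap although the change was small, 1.20-fold higher in mutants (0.26, SE 0.0562, adjusted p = 0.0112). A second, dimmer probe set of Vamp2 gave 0.61 (SE 0.104, adjusted p = 0.00243), also without overlap. Its partner at the plasma membrane, Snap25, read 11.49 to 11.63 in controls and 11.56 to 11.68 in mutants and was not called (0.06, SE 0.0485, adjusted p = 0.54). Stx1a, the other partner, read −0.26 without a call (SE 0.110, adjusted p = 0.175), but was called without replicate 2 of the saline-treated controls (−0.35, adjusted p = 0.0396). The endosomal syntaxin gene Stx6 read 0.02 (SE 0.0863, adjusted p = 0.934). Stx8, another endosomal syntaxin gene, was not called in its brighter probe set (adjusted p = 0.957), while the dimmer one, on mutant arrays near the floor, was called as lower (−0.34, SE 0.0858, adjusted p = 0.0241).

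Among 8 SNARE regulators and priming factors, 0 were called by limma, beside 10.7% of all genes. Unc13b and Stxbp2 passed an unadjusted p under 0.05, or 25% beside 25% of all genes. The changes of the 8 ran from −0.29 (Unc13b) to 0.13 (Snap91, a clathrin adaptor that retrieves Vamp2). Unc13b, a Munc13 gene near the floor, was called without replicate 2 of either mutant group. Cplx1, the complexin read by the brightest probe set, gave 0.10 (SE 0.0575, adjusted p = 0.333), its other probe set gave 0.30 without a call (adjusted p = 0.0909), and Snap91 had an adjusted p of 0.24. Cplx2, the other complexin tested, read −0.24 (SE 0.134, adjusted p = 0.32) and was called without replicate 1 of the saline-treated controls (−0.37, adjusted p = 0.0282). Of the core fusion genes, Vamp2 was thus called in the fit of all arrays, and Syt1, Snap25, Stx1a, Cplx1, Unc13a and Rab3a were not.

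**Figure D2:**
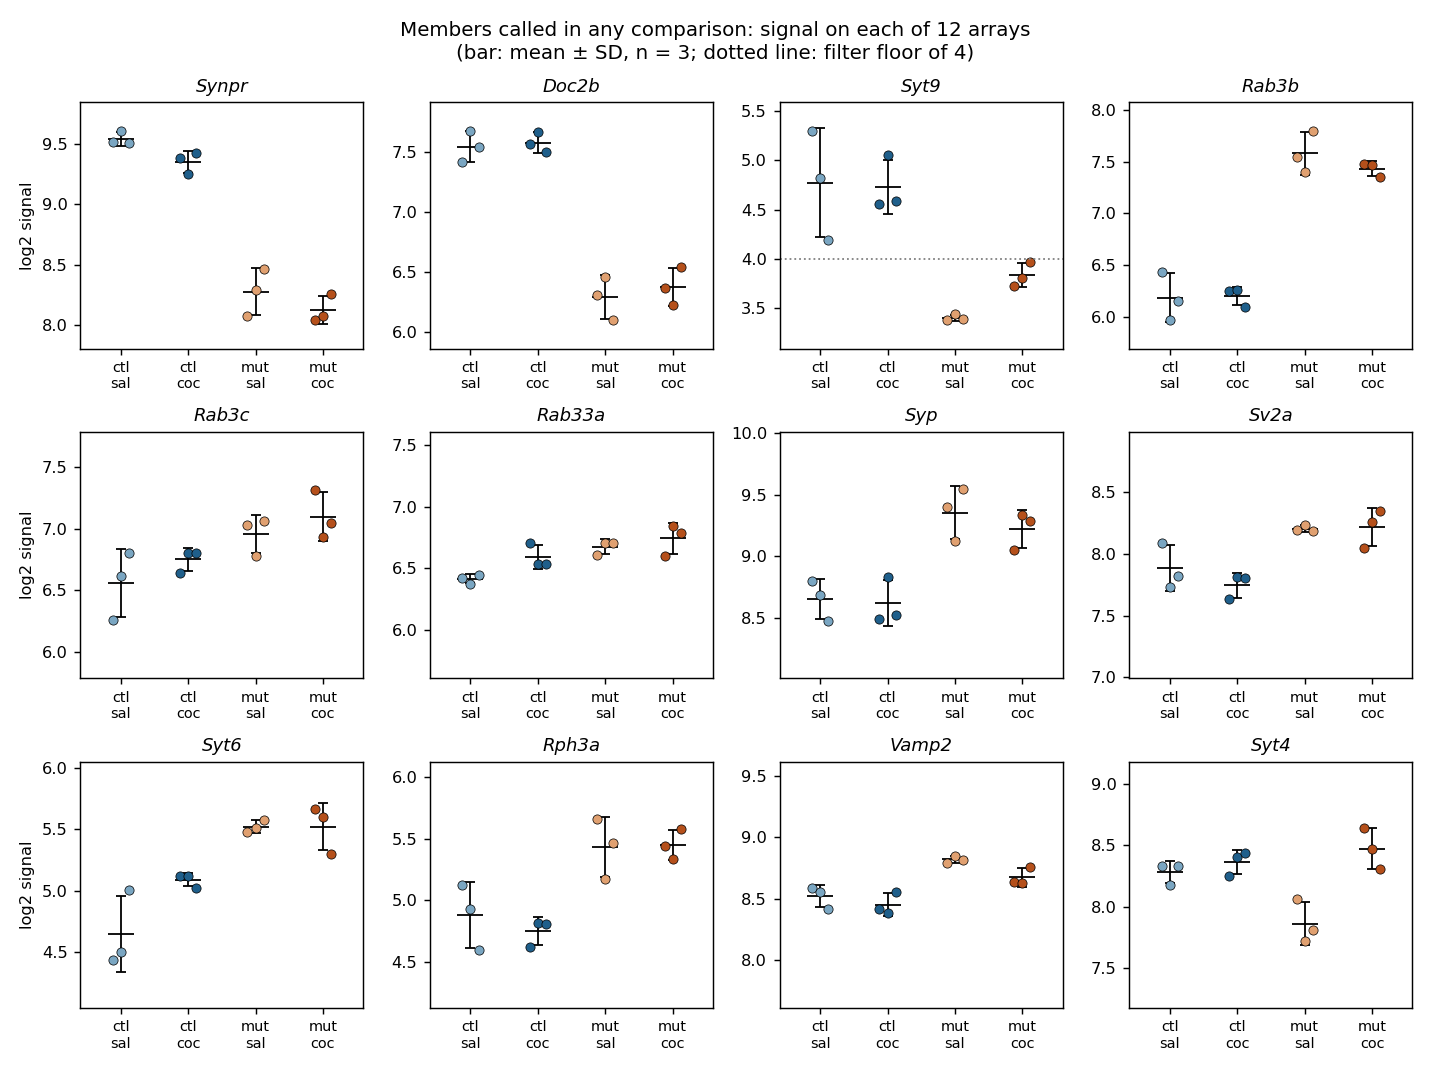
Log2 signal on each of the 12 arrays (points) for the 12 members called in any comparison, with the mean and SD of each group of 3. Synpr, Doc2b and Syt9 lie lower on all 6 mutant arrays, Rab3b, Syp, Syt6, Rph3a and Vamp2 lie higher on all 6, and Syt4 is lowest in saline-treated mutants; the dotted line is the filter's floor of 4.

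The genotype comparison can be made in each treatment arm, and the arms have no arrays in common. Both come from the fit of all 12 arrays, which shares 1 estimate of the spread, so their p-values are not independent. After saline 6 members were called (3.43% of all genes were), 3 higher (1.52% of all genes) and 3 lower (1.91%). After cocaine 7 were called (4.75% of all genes), 4 higher (2.56%) and 3 lower (2.2%). Synpr, Doc2b, Syt9, Rab3b and Syp were called in both arms with the same sign, as were 2.1% of all genes. Leaving out Syt9, whose mutant signals are under the floor, 4 were. The cocaine-arm call of Syt9 was lost in 6 of the 12 fits that left out 1 array, those without any 1 array of that arm (adjusted p up to 0.132). The cocaine-arm call of Syp was lost in 4 (adjusted p up to 0.0924), those without replicates 2 or 3 of the mutants or 1 or 3 of the controls in that arm. Its saline-arm call was lost without replicate 3 of the saline-treated mutants or controls (adjusted p up to 0.055). Over all 19 alternative settings, left-out arrays included, that call was lost in 4. Synpr changed by −1.27 and −1.23, Doc2b by −1.25 and −1.20, Syt9 by −1.37 and −0.90, Rab3b by 1.40 and 1.23 and Syp by 0.70 and 0.60 (log2, saline then cocaine). Syt6 was called after saline (0.87, SE 0.136, adjusted p = 0.00331) and read 0.43 after cocaine (adjusted p = 0.104; 0.0288 without replicate 3 of the saline-treated controls). Rph3a and Sv2a were called after cocaine (0.70 and 0.47) and read 0.55 and 0.32 after saline (adjusted p = 0.0622 and 0.143). Rph3a lost its call when replicate 1 or 3 of the cocaine-treated mutants or replicate 1 of the cocaine-treated controls was left out (adjusted p up to 0.0654), and Sv2a when replicate 2 or 3 of those mutants or any of those controls was (up to 0.0999). After saline Rph3a was called with array weights (adjusted p = 0.0202), with an intensity trend and robust prior (0.0447) and when replicate 2 of the saline-treated mutants or replicate 1 of the saline-treated controls was left out, and Sv2a without that control (0.0403). Vamp2, at 0.30 after saline (adjusted p = 0.0685), was called there with the stricter filter (0.032), array weights (0.0299) and the trend and robust prior (0.0243).

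The test of the difference between arms called none of these 3 members (adjusted p = 0.98 for Syt6 and above it for Rph3a and Sv2a), with 3 members at an unadjusted p under 0.05 (Syt6, Syt4 and Stxbp3). Across the 60 members the changes in the arms correlated at Pearson r = 0.90 and Spearman rho = 0.65, a description over genes that share arrays within an arm. Over the 49 members not called, r was 0.41, and 30 of them had the same sign in both arms. Over both treatments, mutant and control arrays did not overlap for 9 members, 5 higher and 4 lower in mutants, beside 5.91% of all genes. The 4 lower ones include Syt9 and Syt12, which entered the test through control arrays alone. The number called after cocaine fell to 3 without replicate 3 of the cocaine-treated mutants or replicate 1 of the cocaine-treated controls. It was 4 without replicate 2 of those mutants or replicate 3 of those controls. The number of all genes called in the same fits is not set beside these counts. The fall may therefore not be particular to the members.

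**Figure D3:**
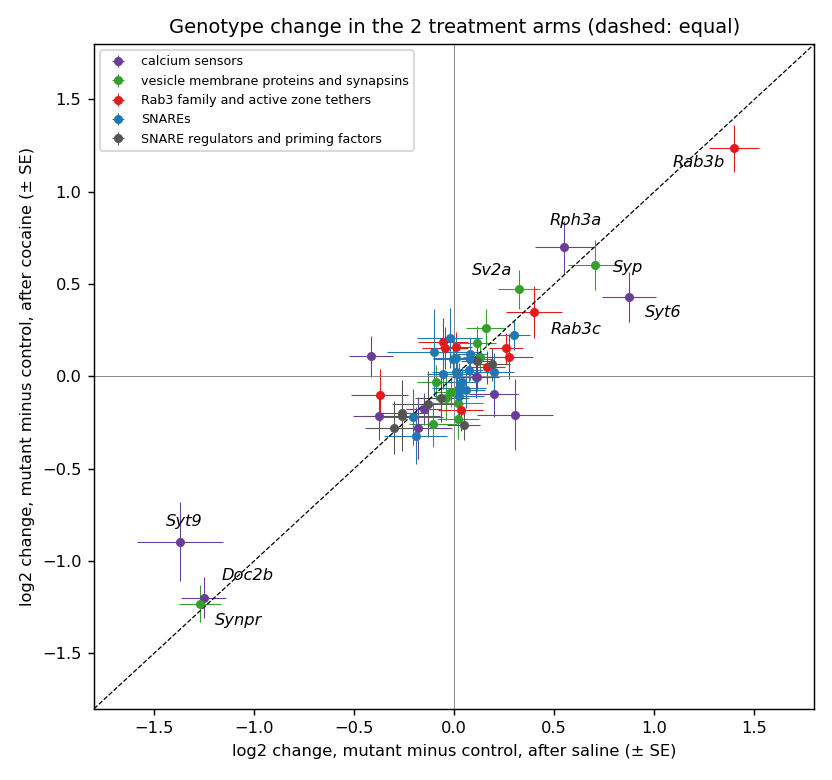
Genotype change (log2, mutant minus control, with SE) of each of the 60 members after saline (horizontal) and after cocaine (vertical), by role, with the line of equal change dashed. Rab3b (1.40 and 1.23), Synpr (−1.27 and −1.23) and Doc2b (−1.25 and −1.20) lie at the ends of the line and most members lie near 0.

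Cocaine raised 1 member, Syt4, in mutants. Syt4 encodes a synaptotagmin of dense core vesicles whose transcript is known to be induced by neuronal activity. It read 8.33, 8.17 and 8.33 in saline-treated controls and 8.25, 8.41 and 8.43 in cocaine-treated controls, 8.06, 7.72 and 7.81 in saline-treated mutants and 8.64, 8.47 and 8.31 in cocaine-treated mutants. In mutants all cocaine arrays lay above all saline arrays, and Syt4 rose 1.52-fold (0.61, SE 0.109, adjusted p = 0.00938). In controls the treatments overlapped, with a change of 0.08 (SE 0.109, adjusted p = 0.974). Over both genotypes the change was 0.35 (SE 0.0772, adjusted p = 0.0332), a call lost in 8 of the 12 fits that left out 1 array (adjusted p up to 0.0914). It was kept in the fits without replicate 3 of the cocaine-treated mutants and without replicate 1 of each of the other 3 groups.

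The genotypes' responses differed by 0.52 (SE 0.154), which was not called (adjusted p = 0.63; unadjusted p = 0.00496). The saline-treated mutants were the lowest group, at −0.42 against saline-treated controls (SE 0.109, adjusted p = 0.0636), a difference that was called with the stricter filter (adjusted p = 0.0331), with array weights (0.0422), with an intensity trend and robust prior (0.0232) and when replicate 1 of the saline-treated mutants was left out (0.0321). After cocaine the genotypes differed by 0.11. The call in mutants was lost without replicate 1 of the cocaine-treated mutants (adjusted p = 0.058) or replicate 2 of the saline-treated mutants (adjusted p = 0.0529). Among the cell type markers, the astrocyte gene Gfap was called for cocaine in mutants in the opposite direction (−1.02, adjusted p = 0.0303). It read 4.87, 4.71 and 5.58 in saline-treated mutants and 3.58 to 4.30 on the other 9 arrays, near the floor, and 0 of the other 9 astrocyte markers were called for cocaine in mutants by limma, with Gjb6 at an unadjusted p under 0.05. The part of this in the Syt4 result was not tested. A second probe set of Syt4 gave 0.29 in mutants without a call (adjusted p = 0.126).

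No other member was called for cocaine in the fit of all 12 arrays. In controls 0 of 60 members were called by limma (0.586% of all genes were), with 5 at an unadjusted p under 0.05 (Syt6, Rab3ip, Stx4a, Stxbp3 and Rims2), or 8.33% beside 6.34% of all genes. The changes of the 60 ran from −0.31 (Rims2) to 0.44 (Syt6, SE 0.136, adjusted p = 0.399). Without replicate 3 of the saline-treated controls Syt6 was called (0.62, adjusted p = 0.0311). In mutants 1 of 60 was called (2.14% of all genes), with 7 at an unadjusted p under 0.05 (11.7% beside 10.7% of all genes), and over both genotypes 1 of 60 (2.53% of all genes). Without replicate 3 of the saline-treated mutants, Rab3gap2, which encodes a subunit of the Rab3 GTPase-activating complex, was called too (0.44, adjusted p = 0.0428). Over both genotypes Rab3ip, which encodes a Rab exchange factor, was called without replicate 1 of the saline-treated controls (0.31, adjusted p = 0.0382). For the difference in response 0 of 60 were called by limma (0.105% of all genes), with the 3 members named above at an unadjusted p under 0.05 (5% beside 4.84% of all genes). Over both genotypes the core genes Snap25, Stx1a and Vamp2 read −0.06, 0.05 and −0.11 with cocaine.

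**Figure D4:**
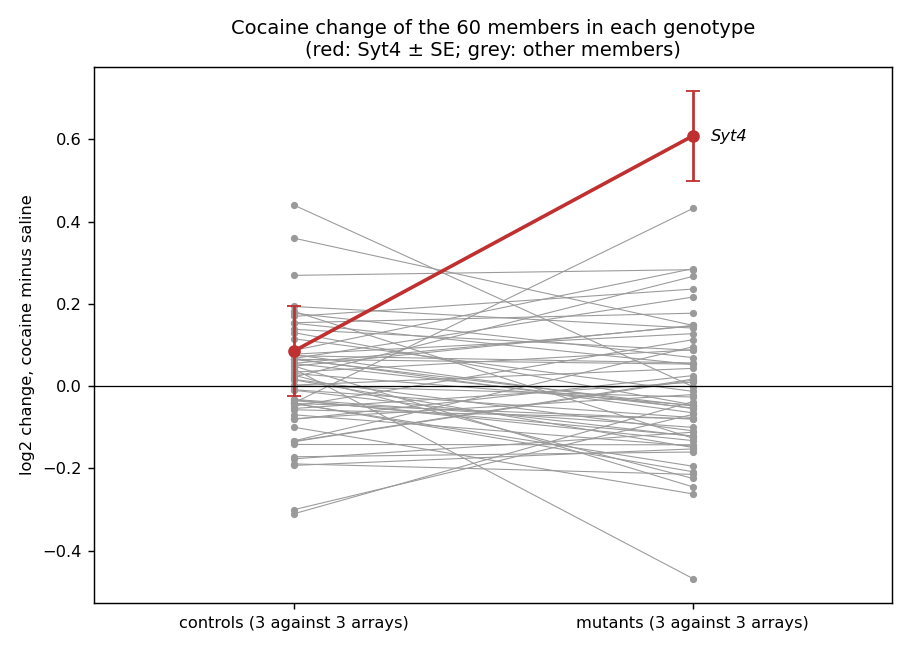
Change with cocaine (log2, cocaine minus saline) of the 60 members in controls and in mutants, each line 1 member, with Syt4 in red and its SE. Syt4 goes from 0.08 in controls to 0.61 in mutants, and the other members lie between −0.47 and 0.44.

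Promoter sequences (250 bases before to 50 after the start of transcription) of 48 of the 60 members were found in RefSeq's table of build GRCm38.p6, with 63 starts in all, and of 9 of the 11 members called for genotype. They were searched on both strands for the CArG box, the site that SRF binds, for TGACGTCA, the site of CREB factors, and for its part TGACG, which overlaps it. A CArG box was found in 0 of the 9 called members and in 1 of the 48, Vamp1, beside 1.81% of all genes in the table. TGACGTCA was found in Stxbp3 and Syn1 (2.03% of all genes), and TGACG in 17 of the 48 (23.05% of all genes), of which Rab3b was called. A match is a description, and its absence concerns these windows only.

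The starts of Synpr and Rab3b, the members with the largest change in each direction, are shown with that of Vamp1, which holds the CArG box. Capitals mark TGACG in Rab3b and the CArG box in Vamp1, and both Synpr starts hold neither motif. All 4 are on the plus strand, at chr14:13284530-13284829 and chr14:13453708-13454007 (Synpr), chr4:108878820-108879119 (Rab3b) and chr6:125215331-125215630 (Vamp1).
Synpr first start: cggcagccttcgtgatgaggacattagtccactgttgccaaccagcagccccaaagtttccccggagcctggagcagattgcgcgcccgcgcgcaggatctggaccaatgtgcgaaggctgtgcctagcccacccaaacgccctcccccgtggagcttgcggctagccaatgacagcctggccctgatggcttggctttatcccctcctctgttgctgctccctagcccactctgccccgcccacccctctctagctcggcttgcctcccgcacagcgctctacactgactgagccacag
Synpr second start: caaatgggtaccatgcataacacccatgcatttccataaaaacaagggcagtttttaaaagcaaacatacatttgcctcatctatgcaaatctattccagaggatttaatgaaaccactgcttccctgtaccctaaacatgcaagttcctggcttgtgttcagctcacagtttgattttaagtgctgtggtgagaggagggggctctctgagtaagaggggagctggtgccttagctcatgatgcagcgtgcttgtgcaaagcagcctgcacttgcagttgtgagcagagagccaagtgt
Rab3b: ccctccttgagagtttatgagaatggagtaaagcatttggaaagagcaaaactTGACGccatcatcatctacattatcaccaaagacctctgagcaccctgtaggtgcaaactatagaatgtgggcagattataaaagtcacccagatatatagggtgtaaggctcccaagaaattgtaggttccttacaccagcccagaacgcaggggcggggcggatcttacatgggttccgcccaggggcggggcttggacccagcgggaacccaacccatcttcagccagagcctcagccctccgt
Vamp1: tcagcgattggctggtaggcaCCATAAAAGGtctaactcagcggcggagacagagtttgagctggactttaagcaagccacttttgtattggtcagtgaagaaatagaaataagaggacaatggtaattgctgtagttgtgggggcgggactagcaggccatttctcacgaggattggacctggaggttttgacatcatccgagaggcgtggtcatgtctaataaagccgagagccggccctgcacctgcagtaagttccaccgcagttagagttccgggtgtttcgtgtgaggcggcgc
The CArG box of Vamp1 begins 229 bases before the start. Vamp1, a vesicle SNARE gene, read 5.80 to 6.61 in controls and 5.70 to 6.66 in mutants and was not called (0.02, SE 0.166, adjusted p = 0.972).

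The remaining presynaptic genes were read from 5 lists, beside which 10.7% of all genes were called for genotype, 4.77% as higher and 5.92% as lower. In dense core vesicle genes, which package neuropeptides, 3 of 12 tested were higher in mutants and 0 lower, the granins Chgb (0.33, SE 0.0557, adjusted p = 0.00214) and Scg2 (0.36, adjusted p = 0.02) and the membrane phosphatase Ptprn (0.25, adjusted p = 0.0457). For cocaine, 0.586% of all genes were called in controls, 2.14% in mutants and 2.53% over both genotypes. Chgb was the only gene of these 5 lists called for cocaine in the fit of all arrays. It read 9.37, 9.37 and 9.36 in saline-treated controls, 9.76, 9.85 and 9.78 in cocaine-treated controls, 9.68, 9.53 and 9.49 in saline-treated mutants and 10.37, 10.21 and 10.19 in cocaine-treated mutants. The treatments did not overlap in either genotype, with changes of 0.43 (controls, adjusted p = 0.0311) and 0.69 (mutants, adjusted p = 0.000259). Cpe, the peptide-processing gene read by the brightest uncalled probe set, gave 0.03.

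Of 22 endocytosis genes, clathrin heavy chain (Cltc, 0.31, adjusted p = 0.0175) was higher and the adaptor kinase gene Aak1 (−0.39, adjusted p = 0.0207) and the endophilin gene Sh3gl2 (−0.21, adjusted p = 0.0473) were lower in mutants, while the dynamin gene Dnm1 was not called (0.11). Of 10 active zone scaffold and calcium channel genes, the liprin gene Ppfia4 was lower (−0.51, SE 0.122, adjusted p = 0.0194) and the channel subunit gene Cacnb4 was not called (0.09). Of 14 other SNARE cycle genes, Vti1b, a Golgi and endosome SNARE (−0.23, adjusted p = 0.0154), and Napa, which recycles SNARE complexes with Nsf (−0.22, adjusted p = 0.0392), were lower, and Hspa8 was not called (0.01). Of 16 genes for transmitter loading and vesicle acidification, 0 were called by limma for genotype, with 3 at an unadjusted p under 0.05 (Atp6ap2, Atp6v1h and the GABA transporter gene Slc32a1). Atp6ap2, a proton pump accessory gene read by the list's brightest probe set, read 0.19 (adjusted p = 0.0601). The medians of the 5 lists ran from −0.05 to 0.09. These calls are over both treatments. After saline alone 0 genes of the 5 lists were called by limma, beside 3.43% of all genes. After cocaine alone 2 dense core vesicle genes and 1 endocytosis gene were called, all higher, beside 4.75% of all genes. Unlike those of the members, the calls in these lists were not examined with arrays left out.

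**Figure D5:**
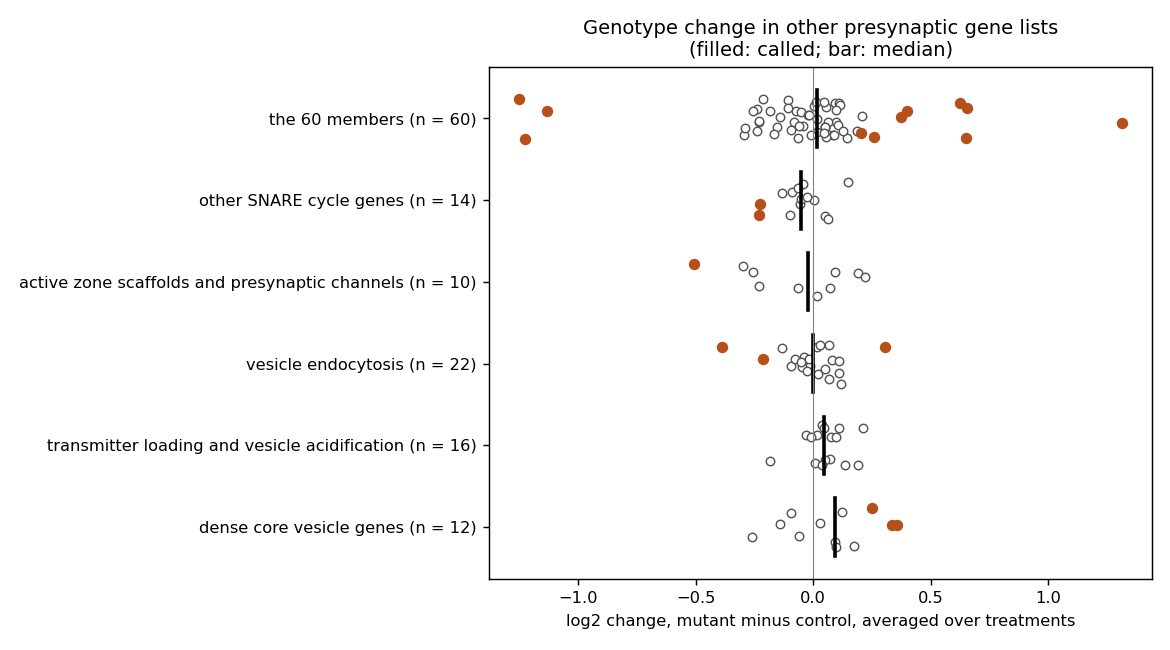
Genotype change (log2, mutant minus control, averaged over treatments) of the 60 members and of 5 other presynaptic lists, 1 point per gene. Filled points are called genes, vertical bars are medians (0.02 for the members, 0.09 for dense core vesicle genes), and the 4 changes past 1 in size are members.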

How the data were processed

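Total RNA from 12 striata was measured on Affymetrix mouse arrays, 1 sample each. The deposited values are log2 signals that the authors made with GCRMA and R 2.4.1 (both named by the submitters' processing notes). Its options and the log base are not stated there, and log2 is taken from the range of 1.26 to 13.1. GCRMA brings arrays to a common level and compresses dim signals, so folds that start or end near 4 are uncertain. After 64 control probe sets were left out, 11102 of 22690 probe sets passed the filter. Symbols came from the platform annotation, updated through Entrez identifiers against a RefSeq table (0 changed).

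Tests used limma 3.58.1 in R 4.3.3 with group means over all 12 arrays, moderated variances (4.71 prior degrees of freedom beside 8 residual) and two-sided p-values. Every adjusted p is limma's with Benjamini-Hochberg adjustment, errors are limma's SE, and the procedure was tested on simulated data. The number of arrays limits the precision. Titles call the samples biological replicates; 1 of 18 same-numbered pairs of arrays had deviations correlated above 0.1, so numbers were not taken to pair samples. Values are given for every called member and the 2 brightest uncalled members of each role. They are also given for up to 4 called genes of each other list with its brightest uncalled gene. The same holds for genes that a count spells out. Syt12, Syt13, Vamp1, Stx1a, Unc13a, Unc13b, Cplx2, Rab3gap2, Stx8 and Scamp5 were added after their values were seen. Members and lists were chosen with earlier results of these data known. Alternatives were the filter, normalisation, array weights, prior, groups in the fit, replicate block, left-out arrays and other probe sets.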

Additional observations from a re-analysis of the deposited data

How the results depend on the processing

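The 8 higher and 3 lower members kept their direction under every alternative in which they were tested. Synpr, Doc2b, Syt9, Rab3b, Syp, Syt6, Rph3a, Sv2a and Vamp2 also kept the call over both treatments in each of these. Syt9, Syt6 and Rph3a were too dim to be tested under the stricter filter. Syt9 had entered the main test through control arrays alone, so its kept call carries that limit. Over fits that left out 1 array, members called ran from 6 to 8 (higher) and 3 to 5 (lower, 5 without replicate 1 of the saline-treated controls) over both treatments, 5 to 9 after saline and 3 to 8 after cocaine. For cocaine they ran from 0 to 1 in controls, 0 to 2 in mutants and 0 to 2 over both genotypes, and for the difference in response 0 were called in each. The counts under alternatives are not set beside the number of all genes called in the same fit. A change in them may therefore not be particular to the members. Array weights gave 5 lower members over both treatments and 10 called after saline. Without the filter 3 were called after cocaine and 0 for cocaine over both genotypes; Rab33a and Rab3c then had adjusted p of 0.0526 and 0.0978. With a replicate block, Syt4 over both genotypes (adjusted p = 0.0517, so 0 members) and Rab33a (adjusted p = 0.084) lost their calls, as did Sv2a after cocaine (adjusted p = 0.0507). With the 2 mutant groups alone, 0 members were called for cocaine, with Syt4 at 0.057. Leaving out 1 array at a time ended cocaine-arm calls of Syp (4 of 12 fits), Syt9 (6), Rph3a (3) and Sv2a (5), and the call of Syt4 over both genotypes (8). It also ended the saline-arm call of Syp in 2 of 12 fits, and over all 19 alternative settings that call was lost in 4. The cause of these changes was not tested. Quantile normalisation shifted the median genotype change of all probe sets by 0.0097. Array medians already lay between 3.75 and 3.78, so this alternative could change little. The counts without the 4 other Rab genes and without the 3 members above the floor on control arrays alone were chosen after seeing the data; the latter gave 5 members after saline and 6 after cocaine.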

Other observations

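The 18 genes that the symbols matched but the filter left out had mean signals of 2.00 to 3.57 (log2) in their brightest probe sets: Cplx3, Cplx4, Doc2a, Rab30, Rab32, Rab37, Rab38, Rab3d, Rab3il1, Stx19, Stxbp6, Syn3, Syngr4, Syt7, Syt8, Syt10, Syt17 and Vamp5. In the fit with no filter 0 of them were called for genotype by limma. The largest values were −0.27 for Stxbp6 (SE 0.106, adjusted p = 0.265) and 0.14 for Syt7 (SE 0.0445, adjusted p = 0.137). Doc2a, the paralog of Doc2b, read −0.01 (SE 0.0140), and Rab3d, the paralog of Rab3b, 0.003 (SE 0.012), at levels where GCRMA compresses differences.

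The spread between animals was small for most members, with a median group SD of 0.118 (log2, n = 3). It was largest for Syt9 in saline-treated controls, where the SD was 0.554.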
